A study of Dunaliella salina with 18 samples.

Results

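The comparison described here is the L2H arm of a salinity shift at 24h against its own start at 0h, in Dunaliella salina strain CCAP 19/3. It rests on 6 of the 18 libraries of the series, the 3 titled L2H at 24h and the 3 titled L2H at 0h, and covers every transcript of the deposited table. The libraries were made from total RNA of algal cultures. The other 12 libraries are the L2H cultures at 4h and the H2L cultures at 0h, 4h and 24h, with 3 libraries in each of the 6 groups. The titles name this arm L2H, while the condition field of the same samples reads high-salt to low-salt, so the arm is named by title here and no direction of salinity is assigned to it. All groups share the strain, and neither the salt concentrations nor the way in which cultures were grown or divided is stated.

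Dunaliella salina is a unicellular green alga without a rigid cell wall that lives across a very wide range of salinity. As background, it balances external salt by making or removing glycerol, which it draws from photosynthesis and from stored starch, and a salinity shift is known to alter membrane transport, glycerol metabolism and carotenoid content in this genus. The table names assembled transcripts by identifier only. These are assembly names, and 0 of the 43236 matched by name in the gene table of the sequenced strain. No sequences were compared, so the 0 does not mean that the transcripts lack counterparts there. No transcript can be assigned here to any of these processes. An identifier such as c50329_g5_i1 holds a component of the assembly (c50329), a gene-level unit within it (g5) and an isoform (i1), and transcripts of 1 component may share reads.

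The 6 libraries had summed values of 768508 to 791132 units, and 5410 to 6626 transcripts were listed at 0 in each. The number of reads behind a value is unknown because the values are scaled for depth. The third library at 0h stood apart from its group. Its Pearson r across transcripts was 0.947 and 0.945 with 0h libraries 1 and 2, which had r = 0.963 with each other, and 0.956 to 0.959 with the libraries at 24h. Its nearest neighbour in the series was the third 4h library of this arm (r = 0.967), and the reverse held. Libraries 1 and 2 were each other's nearest in every group of the series. The third H2L library at 0h was also nearest to another group, the third L2H library at 24h (r = 0.949). The third libraries at 24h in both arms and at 4h in H2L were nearest to a library of their own group. Over the 862 transcripts whose mean in the 6 libraries reached 100, the log2 ratio between libraries 1 and 2 had an SD of 0.179 at 0h and 0.203 at 24h. For ratios of each to the third library the SD was 0.697 and 0.707 at 0h and 0.418 and 0.362 at 24h. Transcripts are not independent replicates, so these values describe likeness only. The title tags of the 24h libraries differ from those of the 0h libraries, and what the tags mean is not stated, so time and tag cannot be told apart here. The tags of libraries 1 and 2 begin with the library's number at every time, while those of the third libraries have another form at every time. A difference between the third library and the other two therefore cannot be told apart from this difference in tag. The labels do not tie the libraries of a group to separate cultures, so the spread behind every p-value may be technical.

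At 24h, 294 transcripts were higher and 180 lower than at 0h, out of 34166 tested. Among the calls, the falls went further than the rises. On the log2(value + 1) scale 71.1% of the falls and 43.5% of the rises reached 2-fold, and 9 falls but 2 rises reached 8-fold. Of all transcripts tested, 1065 (3.12%) reached 2-fold, 480 higher and 585 lower. These sizes are given for the main scaling only. The median log2 change was -1.23 over the transcripts that fell, 0.94 over those that rose and 0.04 over all tested. The 474 calls are 1.39% of the transcripts tested, with 0.861% higher and 0.527% lower, at a limma adjusted p under 0.05 in a fit over all 18 libraries. The ranges of both groups were separate in each of the 474, as they were in 6735 (19.7%) of all transcripts tested. Rises made up 62.0% of the calls, against 51.6% after quantile normalization (224 higher and 210 lower) and 34.4% after upper-quartile scaling (134 and 255), while each of the 474 kept the sign of its change under both.

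This list of 474 depends on how the replicate spread is estimated. Limma called 0 transcripts when the 6 libraries were fitted alone (5018 at an unadjusted p under 0.05, smallest adjusted p 0.0589) and 0 when libraries 1 and 2 of every group were averaged and counted as 1 sample (2218 at an unadjusted p under 0.05, smallest adjusted p 0.0647). Every rise or fall below is a call of the fit over 18 libraries, which takes the spread of this comparison in part from the other groups. Leaving out 0h libraries 1, 2 and 3 of this arm in turn gave counts of 31, 27 and 2102, and leaving out its 24h libraries in turn gave 66, 79 and 191. Libraries outside the comparison enter through the shared spread. The count fell to 299 or 293 when library 1 or 2 of H2L at 0h was dropped, to 286 when H2L library 2 at 24h was dropped and to 275 when H2L library 1 at 4h was dropped. It rose to 669 without the third L2H library at 4h. Without the third H2L library at 0h, 4h or 24h it rose to 564, 544 or 582. Without the third L2H library at 0h, 1351 were higher and 751 lower, and 468 of the 474 calls were among them in the same direction.

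**Figure D1:**
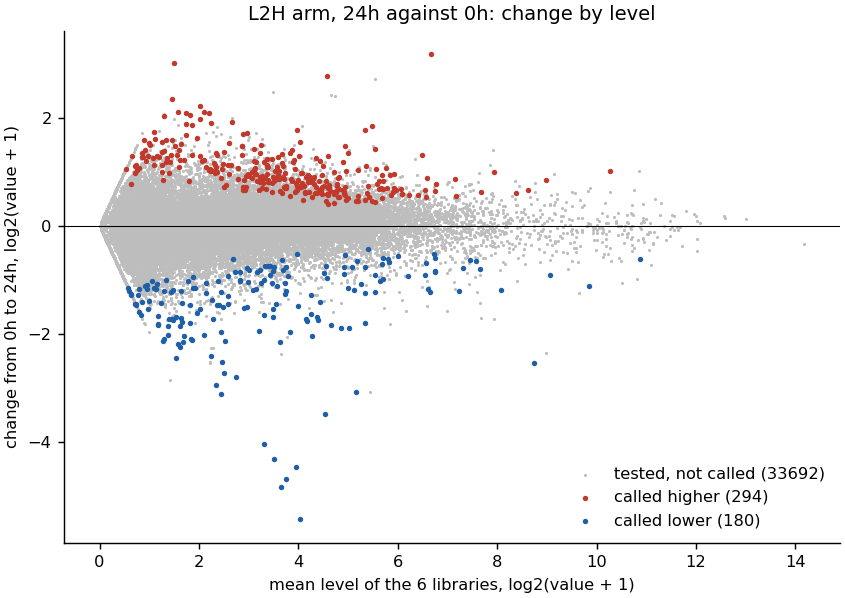
L2H change between 0h and 24h (vertical axis, log2(value + 1) difference of group means) against the mean level of the 6 libraries (horizontal axis, log2(value + 1)), 1 point per transcript tested. The 294 called higher (red) reach 3.17 and have a median of 0.94, while the 180 called lower (blue) reach -5.43 at middle levels.

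The 10 largest falls among transcripts with a mean of at least 10 went from means of 14.1 to 115 at 0h to means of 0.843 to 11.4 at 24h. For these and for the 10 largest rises, groups without overlap were a condition of the choice. Their means were 9.13 to 68.5 times higher at 0h than at 24h. The deepest was c50329_g5_i1, at 154, 131 and 60.5 in the 0h libraries and 0.82, 1.06 and 3.17 in the 24h libraries. The third library was the lowest at 0h and the highest at 24h. The log2 change of c50329_g5_i1 was -5.43 (SE 0.81, limma adjusted p = 0.00528). A second unit of the same component, c50329_g3_i1, stood at 108, 100.2 and 27.6 at 0h and at 0.52, 1.52 and 3.79 at 24h (log2 change -4.69, SE 0.78, limma adjusted p = 0.01). The transcript c48260_g3_i1 stood at 93.8, 96.0 and 31.7 at 0h and 0.80, 0.90 and 2.84 at 24h (log2 change -4.83, SE 0.80, limma adjusted p = 0.00981). The same shape recurs in all 3, with libraries 1 and 2 close together and the third library below them at 0h. At 4h libraries 1 and 2 were already low while the third was not. Libraries 1 and 2 of c50329_g5_i1 gave 1.42 and 2.18 at 4h and the third gave 60.1, close to its 60.5 at 0h. For c48260_g3_i1 the 4h values were 0.71, 1.16 and 38.1, and for c50329_g3_i1 they were 1.90, 0.78 and 32.0.

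A pair of falls took another course, with all 3 libraries in step at 4h. The transcript c49198_g1_i2 stood at 99.9, 112 and 32.9 at 0h, 26.7, 28.0 and 28.6 at 4h, and 2.26, 2.80 and 1.95 at 24h. From 0h to 24h its log2 change was -4.46 (SE 0.42, limma adjusted p = 8.31e-05). The transcript c51122_g1_i3 stood at 67.7, 75.3 and 23.8 at 0h, 20.4, 19.1 and 18.8 at 4h, and 1.83, 2.07 and 0.90 at 24h (log2 change -4.31, SE 0.45, limma adjusted p = 0.000194). In both, libraries 1 and 2 dropped at each step, and the third library was lower than the other two at 0h and level with them at 4h.

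The other 5 of the 10 largest falls began at means of 14.1 to 104. The transcript c43988_g1_i2 stood at 64.5, 71.5 and 12.7 at 0h and at 2.05, 1.47 and 0.93 at 24h (log2 change -4.04, SE 0.69, limma adjusted p = 0.0126). The transcript c25263_g1_i1 stood at 94.1, 82.9 and 58.2 and then at 4.61, 5.01 and 9.04 (log2 change -3.48, SE 0.65, limma adjusted p = 0.0190). In c36948_g1_i1 the libraries gave 23.5, 14.3 and 10.1 at 0h and 0.81, 1.54 and 0.38 at 24h (log2 change -3.12, SE 0.51, limma adjusted p = 0.00981). In each of these 3 the third library was the lowest at 0h. The fall of c20629_g1_i1 stopped at higher levels, from 104, 125 and 82.6 to 10.4, 9.45 and 14.3 (log2 change -3.08, SE 0.41, limma adjusted p = 0.00200). The transcript c49210_g2_i1 went from 16.8, 18.3 and 7.19 to 0.67, 1.19 and 0.67 (log2 change -2.95, SE 0.43, limma adjusted p = 0.00463). The third library was below libraries 1 and 2 at 0h in 10 of these 10 transcripts and above them at 4h in 9. Of all 180 falls, 10 had a mean of at least 10 at 0h with every 24h library under 3, and no rise had the mirror pattern.

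The rises were smaller on the log2(value + 1) scale, which understates changes at low levels. Over calls of all levels, 16 rises and 35 falls had a ratio of group means of 10 or more. Rises whose higher group averaged under 10 are left out of the ranking here. In the largest pair of those kept, the third library was far above libraries 1 and 2 at 0h. Ranked by log2 change, the 10 largest rises with a mean of at least 10 had means 2.83 to 4.79 times higher at 24h than at 0h. The transcript c46349_g2_i1 stood at 14.6, 12.7 and 184 at 0h and 349, 281 and 291 at 24h (log2 change 3.17, SE 0.64, limma adjusted p = 0.0257). Its partner in the component, c46349_g1_i2, stood at 3.08, 4.08 and 35.7 and then at 56.4, 60.1 and 68.2 (log2 change 2.77, SE 0.53, limma adjusted p = 0.0201). At 4h they had reached 266, 212 and 204, and 48.5, 47.9 and 29.2. The third library was thus already high at 0h in both. The log2 change of c46349_g2_i1 was 4.39 without L2H 0h library 3 and 2.51 without library 2, where it was not called. Neither call stood without L2H 0h library 1 or 2 or without any 1 of the 3 libraries at 24h.

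Other rises were more even between libraries. The transcript c50141_g1_i1 stood at 18.9, 18.2 and 32.8 at 0h, 11.7, 10.8 and 27.9 at 4h, and 78.8, 75.5 and 95.9 at 24h (log2 change 1.84, SE 0.35, limma adjusted p = 0.0203). The transcript c47822_g1_i1 stood at 15.1, 16.9 and 36.2 at 0h and at 68.3, 68.0 and 87.8 at 24h (log2 change 1.77, SE 0.27, limma adjusted p = 0.00654). In both the third library was the highest at 0h and again at 24h. The transcript c48740_g4_i1 went from 1.15, 1.86 and 4.69 to 8.12, 8.93 and 19.9 (log2 change 1.92, SE 0.35, limma adjusted p = 0.0185). The transcript c42624_g2_i1 went from 2.40, 2.44 and 4.85 to 8.69, 13.3 and 16.3 (log2 change 1.71, SE 0.26, limma adjusted p = 0.00530). For c50141_g1_i1 the call was lost in 8 of 32 alternatives, for c48740_g4_i1 in 6, for c47822_g1_i1 in 4, and for c42624_g2_i1 in 4 of 31. The remaining 4 of the 10 lay near the threshold. The transcript c10031_g1_i1 went from 4.19, 5.52 and 17.2 to 22.7, 24.8 and 39.8 (log2 change 1.78, limma adjusted p = 0.0452). The transcript c40023_g1_i2 went from 3.80, 4.14 and 2.28 to 16.3, 16.3 and 8.71 (1.72, limma adjusted p = 0.0455), and is the only 1 of the 10 in which the third library was not the highest at 0h. The transcripts c24086_g1_i1 and c45647_g2_i1 had log2 changes of 1.55 (limma adjusted p = 0.0433) and 1.49 (limma adjusted p = 0.0415), and the calls of these last 4 were lost in 20 to 22 of 32 alternatives.

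**Figure D2:**
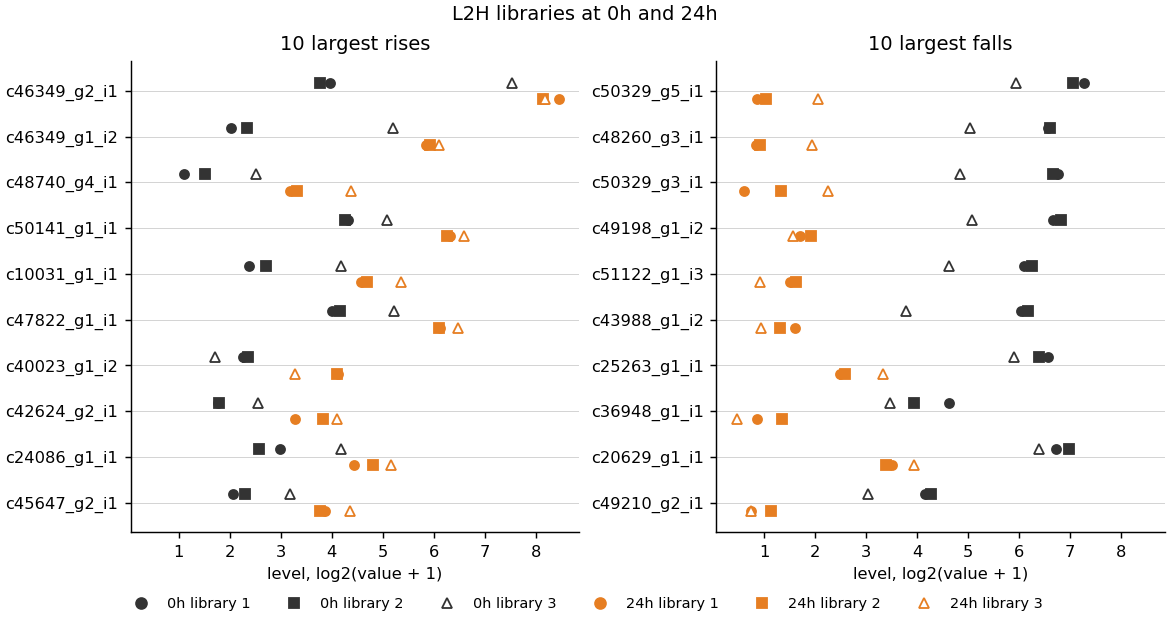
Level in each L2H library, log2(value + 1), of the 10 largest rises and the 10 largest falls with a mean of at least 10, at 0h (dark) and 24h (orange). Symbols mark the library number, with open triangles for the third. The third library at 0h lies nearest the 24h values in 9 of the 10 rises and 10 of the 10 falls. Groups without overlap were a condition of the choice.

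Estimated changes of the most abundant transcripts were small, with an SE of up to 0.52 (c44122_g2_i1). None of the 20 transcripts with the highest mean over the 6 libraries was called. As 1.39% of all transcripts tested were called, this count does not set the 20 apart. They held 11.6% to 13.4% of a library's summed value, their means were 2894 or more, and their log2 changes lay between -0.46 and 0.27 (smallest limma adjusted p 0.523). The top transcript, c46710_g2_i7, stood at 23546, 21133 and 18087 at 0h and at 20869.8, 16279.5 and 13297 at 24h, groups that overlap. Its 4h values were 8657 and 8610.2 in libraries 1 and 2 and 18686 in the third.

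Of the transcripts called, the most abundant moved by about 1 log2 unit or less, with c51439_g1_i1 as the exception. The largest means among the rises belonged to c48376_g4_i1, at 806, 726 and 1099.5 at 0h and 2177, 1771 and 1365 at 24h (log2 change 1.01, SE 0.24, limma adjusted p = 0.0498), and this call was lost in 21 of 32 alternatives. The transcript c48946_g1_i1 went from 331, 306 and 515 to 598, 646 and 798 (log2 change 0.85, limma adjusted p = 0.0438). The transcripts c44133_g1_i1 and c48255_g1_i1 rose by 0.67 (limma adjusted p = 0.0197) and 0.60 (limma adjusted p = 0.0375) on the log2 scale, from means of 309 ± 6.89 and 273 ± 43.8 to 494 ± 58.7 and 411 ± 9.53 (SD, n = 3). Among the falls, c44730_g2_i1 went from 2519, 2315 and 2188 to 1521, 1412 and 1635 (log2 change -0.62, limma adjusted p = 0.0491). The transcript c37686_g1_i1 went from 1685, 1614 and 927 to 585, 587 and 725 (log2 change -1.11, limma adjusted p = 0.0495). The calls of c44730_g2_i1 and c37686_g1_i1 were lost in 20 and 22 of 32 alternatives. The transcript c48177_g2_i1 went from 799, 909 and 529.9 to 402, 423 and 344 (log2 change -0.91, limma adjusted p = 0.0259). The exception in size was c51439_g1_i1, at 1222, 1229.8 and 716 at 0h, 351, 322 and 791 at 4h, and 176, 177 and 175 at 24h. It fell by 2.54 on the log2 scale (SE 0.36, limma adjusted p = 0.00330), and its 24h libraries agreed to an SD of 1.25 on a mean of 176.

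Calls came from all levels. Of 14048 transcripts with a mean under 3 over the 18 libraries 0.690% were called (42 higher and 55 lower). The share was 1.52% of 9105 at means of 3 to 10, 1.82% of 7482 at 10 to 30, 2.82% of 2662 at 30 to 100 and 3.48% of 747 at 100 to 1000. Of the 122 transcripts at 1000 or more, 2 were called, c48376_g4_i1 and c44730_g2_i1. Rises outnumbered falls at means of 3 to 100 (94 against 44, 97 against 39, and 49 against 26), and falls outnumbered rises below 3 and at 100 to 1000 (15 against 11). These splits are of the main scaling, and upper-quartile scaling gave 134 rises and 255 falls over all levels. The median log2 change of all tested was -0.047 below 3, 0.062 at 3 to 10 and 0.12 at 10 to 30. It was 0.102 at 30 to 100 and 0.014 at 100 to 1000. The pseudocount compresses changes at low levels, so the size of a change cannot be compared between these classes.

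The 474 calls lay in 455 of the 22962 components tested, of which 5422 had 2 or more transcripts tested. A pair of calls was found in 19 components and more than 2 calls in none. Transcripts of the same component may share reads, and no share over all tested pairs stands beside the next count. In 18 of the 19 both calls went the same way. The exception was c49548, chosen after its values were seen, where c49548_g2_i2 went from 62.7, 73.9 and 48.8 to 17.9, 31.6 and 28.4 (log2 change -1.24, limma adjusted p = 0.0197). Its neighbour c49548_g5_i1 went from 8.05, 7.67 and 9.87 to 19.8, 11.1 and 24.4 (log2 change 0.97, limma adjusted p = 0.0436). Within c50329, of 5 units tested only c50329_g5_i1 and c50329_g3_i1 were called. The unit c50329_g4_i1 stood at 317, 303 and 283 at 0h and 278, 292 and 376 at 24h (log2 change 0.06, limma adjusted p = 0.940), and c50329_g1_i5 at 430.2, 438 and 187 and then at 113, 106 and 149 (log2 change -1.43, limma adjusted p = 0.123).

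A core of 25 transcripts, 7 higher and 18 lower, was called with all 6 libraries and again after each of the 6 had been left out in turn. The named transcripts c50329_g5_i1, c49198_g1_i2, c51122_g1_i3, c20629_g1_i1, c51439_g1_i1 and c49210_g2_i1 belong to it. The rise with a mean of at least 10 is c49983_g2_i1, at 79.2, 88.5 and 80.7 at 0h, 76.6, 69.4 and 78.7 at 4h, and 139, 155.5 and 135 at 24h (log2 change 0.78, SE 0.11, limma adjusted p = 0.00463). The other 6 rises were low, between 0.14 and 1.78 in every 0h library, 0.14 and 2.99 in every 4h library, and 3.33 and 9.54 in every 24h library. Their log2 changes were 1.59 to 2.35, and the third library was the highest at 0h in 5 of the 6. A call that stands without each library in turn favours transcripts whose libraries lie close together. Of these, c22914_g1_i1 had the smallest adjusted p of the whole comparison and was chosen after its values were seen, as were the next 3. It stood at 0.70, 0.41 and 0.79 at 0h, 0.69, 0.49 and 0.49 at 4h, and 6.62, 5.10 and 6.04 at 24h (log2 change 2.08, SE 0.17, limma adjusted p = 2.7e-05). The transcript c39898_g1_i4 stood at 0.96, 0.78 and 0.85, then 0.84, 1.24 and 1.08, and then 5.81, 5.19 and 4.13 (log2 change 1.69, SE 0.18, limma adjusted p = 0.000194). For both, the 0h and 4h libraries lie together and all the distance to the 24h libraries appears after 4h.

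The 18 falls of this core ran from -5.43 to -0.92. The transcript c26285_g1_i1 went from 15.8, 18.3 and 8.77 at 0h through 8.58, 9.27 and 7.51 at 4h to 1.61, 1.04 and 1.05 at 24h (log2 change -2.73, SE 0.25, limma adjusted p = 6.66e-05). The smallest of the 18, c58197_g1_i1, was also the most even, at 63.1, 60.8 and 65.5 at 0h, 67.3, 68.0 and 68.9 at 4h, and 33.2, 31.0 and 34.9 at 24h (log2 change -0.92, SE 0.09, limma adjusted p = 8.31e-05). With libraries 1 and 2 averaged, the limma adjusted p was 0.0647 for c22914_g1_i1, 0.0816 for c49198_g1_i2 and c26285_g1_i1, 0.176 for c58197_g1_i1 and 0.517 for c49983_g2_i1.

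**Figure D3:**
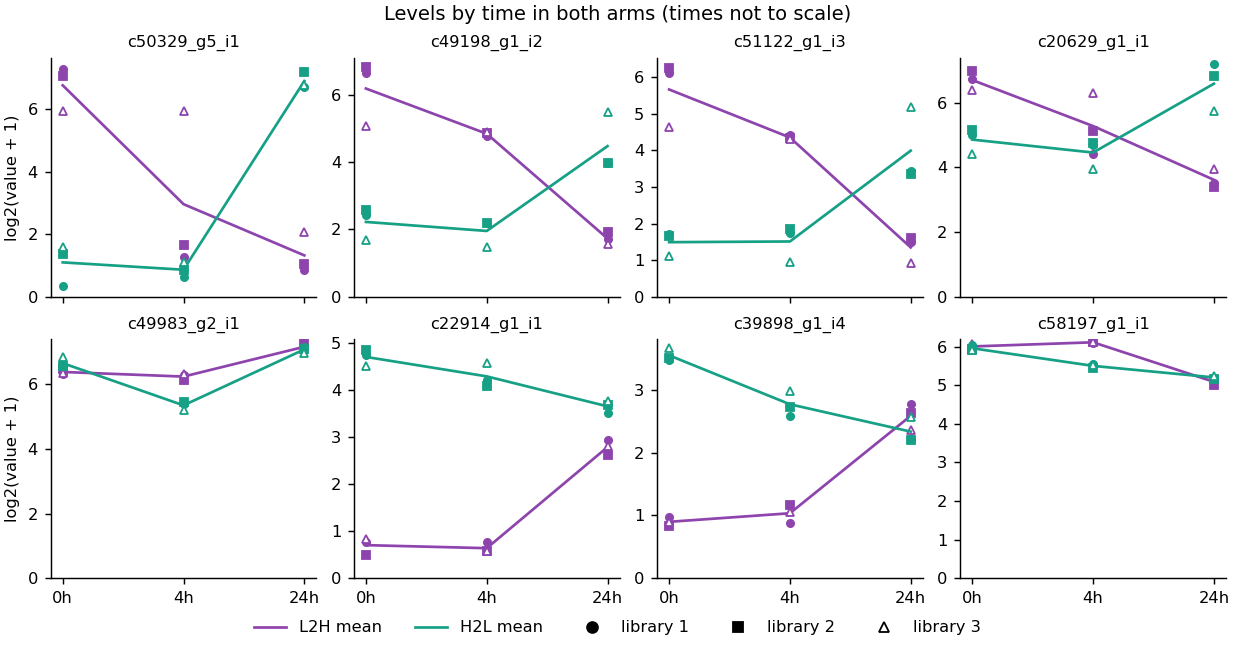
Level by time, log2(value + 1), of 8 transcripts called in the L2H comparison with all libraries and without each of the 6 in turn, for the L2H arm (purple) and the H2L arm (green). Lines join group means, symbols are libraries with open triangles for the third, and the time axis is not to scale. The 4 falls of the upper row move the other way in H2L at 24h, while c49983_g2_i1 and c58197_g1_i1 move the same way in both arms.

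Between libraries of the same number, which were not shown to be paired samples, libraries 1 and 2 differed more than the third in most called transcripts. Over the rises the median log2 change from 0h to 24h was 1.08 between libraries 1, 1.06 between libraries 2 and 0.67 between the third libraries. Over the falls it was -1.41, -1.40 and -0.94. The difference between the third libraries was the smallest in 217 of 294 rises (73.8%) and 135 of 180 falls (75.0%). Over all tested transcripts the medians were 0.07, 0.06 and -0.04. At 0h the third library was nearer to the 24h level than libraries 1 and 2 were in 225 of the 294 rises and 156 of the 180 falls. These values use the libraries that made the calls and are a description. The counts have no share over all tested transcripts beside them, so they do not show that the called transcripts are unusual in this. The summed value of the 294 rising transcripts was 0.715%, 0.719% and 0.963% of the library total at 0h and 1.51%, 1.49% and 1.46% at 24h. The 180 falling transcripts made up 1.65%, 1.68% and 1.18% at 0h and 0.684%, 0.689% and 0.708% at 24h. The 24h libraries agree closely in both sums, and the third library at 0h lies between the other 0h libraries and the 24h libraries.

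**Figure D4:**
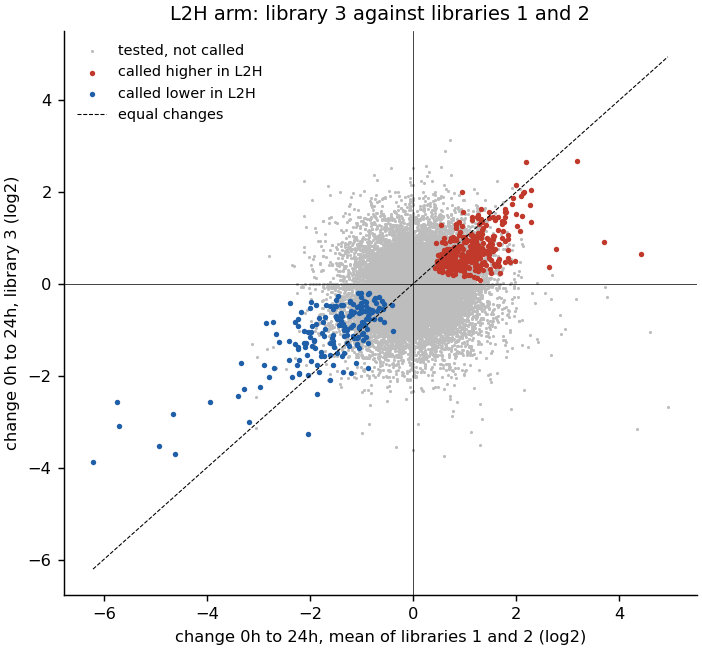
L2H change between 0h and 24h, on the log2(value + 1) scale, of the third libraries (vertical axis) against the mean change of libraries 1 and 2 (horizontal axis), 1 point per transcript tested. The dashed line marks equal changes. Most called points lie closer to 0 on the vertical axis than the dashed line, with medians of 0.67 and -0.94 for the third libraries.

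The H2L arm was sampled at the same times from other libraries. Its libraries enter the L2H calls through the shared spread, and its change from 0h to 24h does not enter the L2H log2 changes. The deepest L2H falls were H2L rises. All 10 of the largest falls had a higher mean in H2L at 24h than at 0h, by 1.27 to 5.79 on the log2 scale, and 9 of them were called higher there, where 7.68% of all tested transcripts were called in either direction and 2.56% higher. The transcript c50329_g5_i1 stood at 0.26, 1.58 and 2.02 in H2L at 0h and at 104, 145 and 108 at 24h (log2 change 5.79, SE 0.81, limma adjusted p = 0.000944). The transcript c43988_g1_i2 was the only 1 of the 10 that was already high in H2L at 4h, at 42.9, 43.3 and 27.7, against 4.34, 4.42 and 2.96 at 0h and 42.2, 43.1 and 39.7 at 24h. In c49198_g1_i2 the H2L libraries at 24h gave 14.9, 14.6 and 43.6, with the third library the highest (log2 change 2.25, limma adjusted p = 0.00549). The 1 not called, c49210_g2_i1, stayed under 4 in every H2L library (log2 change 1.27, limma adjusted p = 0.0796).

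Over all 180 falls the opposite direction in H2L was also commoner than among all transcripts tested. For the 294 rises the direction of the H2L mean lay near that of all tested. Of the 180 falls, 43 (23.9%) were called higher in H2L at 24h and 10 (5.56%) lower, beside 2.56% and 5.12% of all transcripts tested. Of the 294 rises, 53 (18.0%) were called lower in H2L and 14 (4.76%) higher, beside 5.12% and 2.56% of all transcripts tested. The H2L mean moved the opposite way in 136 of the 180 falls (75.6%) and 176 of the 294 rises (59.9%). Among all tested transcripts with any decrease or any increase in L2H it did so in 52.3% and 55.7%. The median H2L change was 0.43 over the falls, -0.16 over the rises and -0.02 over all tested. The counts of 43 and 53 were each 0 with libraries 1 and 2 averaged and with only the groups compared, and 126 and 285 without L2H 0h library 3. Upper-quartile scaling gave 64 and 29, so that the first count became the larger, and testing with no filter gave 34 and 33. They were 341 and 661 with array weights, 578 and 1180 with only libraries 1 and 2, 195 and 405 with L2H library 3 of 0h and of 4h left out, and 11 and 5 at an adjusted p under 0.01. Without L2H 0h library 1 they were 11 and 5, and without L2H 0h library 2 they were again 11 and 5. With a single library outside L2H at 0h left out they were 16 to 66 and 10 to 66.

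The difference between the 2 changes was tested directly in the same fit. It was called in 2200 of 34166 transcripts (6.44%), 1434 (4.2%) with the L2H change above the H2L change and 766 (2.24%) below it, and among the 474 L2H calls in 169 of the rises and 137 of the falls. The latter counts share the L2H libraries with the choice of transcripts and support nothing further. For c50329_g5_i1 the difference was -11.23 (SE 1.15, limma adjusted p = 5.74e-05) and for c48260_g3_i1 it was -10.20 (SE 1.13, limma adjusted p = 0.000109). Among the rises with a mean of at least 10 the largest differences were those of c46349_g2_i1 at 3.96, c45525_g1_i2 at 3.79 and c46349_g1_i2 at 3.78. The transcript c45525_g1_i2 stood at 2.47, 2.16 and 6.67 in L2H at 0h and 11.2, 12.9 and 9.88 at 24h, against 25.0, 27.2 and 18.9 in H2L at 0h and 4.35, 4.36 and 3.24 at 24h. The arms moved in opposite directions. The 0h and 24h libraries did not overlap in H2L, as the choice required of them in L2H. The median of the difference over all tested transcripts was 0.07, and -0.07 after upper-quartile scaling. Scaling also moved the split, to 1160 above and 1103 below after quantile normalization and 933 and 1302 after upper-quartile scaling. Averaging libraries 1 and 2 left 43 calls. Leaving out L2H libraries 1, 2 and 3 at 0h in turn gave 1059, 1118 and 3434 calls, and leaving out library 2 at 24h gave 1323. In the other arm, dropping library 1 or 2 at 0h gave 1147 or 1098 calls and dropping the third at 24h gave 1417.

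Some transcripts moved alike in both arms. The transcript c58197_g1_i1 stood at 64.7, 59.3 and 59.4 in H2L at 0h and 35.7, 34.7 and 36.9 at 24h, so that it fell in H2L (limma adjusted p = 0.000232) as in L2H. The rise c49983_g2_i1 went from 93.9, 93.3 and 114 to 143, 137 and 125 in H2L (log2 change 0.43, limma adjusted p = 0.0310), and the difference from its L2H change was 0.35 (limma adjusted p = 0.204). The low rise c22914_g1_i1 did the opposite, from 25.9, 27.9 and 21.6 in H2L at 0h to 10.4, 11.8 and 12.5 at 24h (limma adjusted p = 0.00211). Among the 10 largest L2H rises with a mean of at least 10, 8 had a lower H2L mean at 24h, of which 3 were called lower, and none was called higher.

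**Figure D5:**
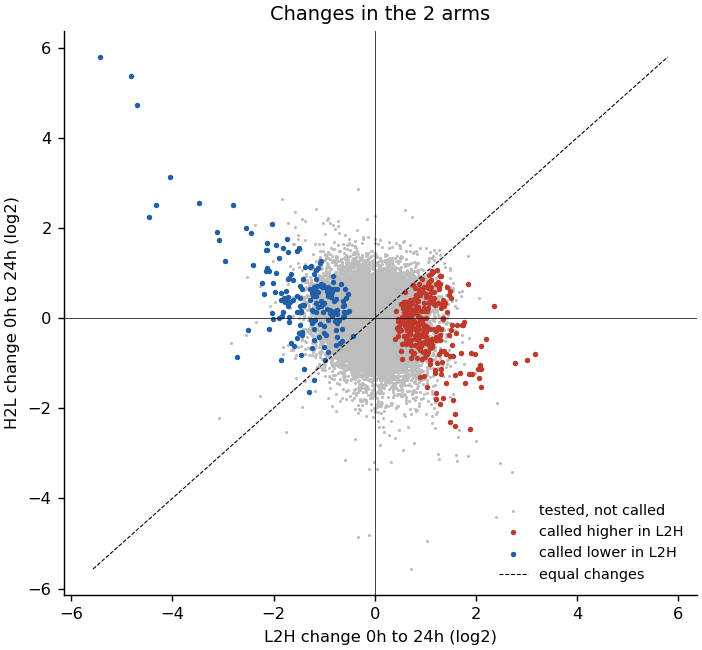
H2L change from 0h to 24h (vertical axis) against L2H change (horizontal axis), both as log2(value + 1) differences of group means, 1 point per transcript tested. The arms share no library. Transcripts called lower in L2H (blue) extend to the upper left, where c50329_g5_i1 lies at -5.43 and 5.79. Of these 180, 136 (75.6%) lie above 0, and 176 of the 294 called higher (red, 59.9%) lie below 0. Among all tested transcripts with any decrease or any increase in L2H, the H2L change was opposite in 52.3% and 55.7%.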

How the data were processed

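RNA abundance was measured in 18 libraries, of which 6 belong to the comparison. The submitters' processing notes name FastQC, Bowtie2 and RSEM, whose versions and settings are not given in the sources used here. Depth-scaled abundance, a signal that is not stated to be FPKM or TPM, fills the 1 table the authors deposited. A count model was therefore not used. Titles matched every column to a sample, leaving 0 unused. Of 17725 low transcripts 13.4% had every value within 0.1 of a whole multiple of their lowest value, so reads were not recovered and depth is unknown.

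The filter kept 34166 of 43236 transcripts (79.0%), those reaching a value of 1 in 3 or more libraries. Group means of log2(value + 1), a scale that understates changes of low transcripts, were fitted over the 18 libraries with limma 3.58.1 (R 4.3.3) and a trended prior variance. P-values were two-sided, with Benjamini-Hochberg adjustment over every transcript tested, and a call is an adjusted p under 0.05. The contrasts were 24h against 0h in L2H, the same in H2L (added after seeing the data), and the difference between them.

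Transcripts were named by rules. Among calls without overlap whose higher group averaged 10 or more, these were the 10 largest changes in each direction, the 4 most abundant in each and the 4 with the largest difference between the arms in each. A further rule took the 4 largest in each direction among calls that stood without each of the 6 libraries in turn, of which 1 rise qualified. A rule for components with 3 or more calls named none. Exceptions are stated in the text. Alternatives covered scaling, filter, pseudocount, library weights, the trend, a replicate block, the threshold, libraries 1 and 2 alone or averaged, and libraries left out. Those leaving out a library of another group were added after seeing the data. The members and lists were chosen with earlier results of these data known.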

Additional observations from a re-analysis of the deposited data

Results flagged for a closer look

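The change from 0h to 24h differed between the L2H and H2L arms in 2200 of 34166 transcripts tested, by the limma test of the difference itself, and in 26 of the 34 transcripts named by rule or after their values were seen. Values are the L2H change minus the H2L change on the log2 scale. Most of the named transcripts were picked from the L2H change, which enters each difference. A further rule took those with the largest called differences, and c45525_g1_i2 was named by that rule alone. The count of 26 is thus partly set by the choice, and the size of each difference is a description.

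Among the falls the difference was widest in c50329_g5_i1 at -11.23, c48260_g3_i1 at -10.2 and c50329_g3_i1 at -9.41, whose H2L changes were 5.79, 5.37 and 4.72. It was -7.18 in c43988_g1_i2, -6.82 in c51122_g1_i3, -6.71 in c49198_g1_i2 and -6.03 in c25263_g1_i1. It was -5.03 in c36948_g1_i1, -4.81 in c20629_g1_i1, -4.53 in c51439_g1_i1 and -4.22 in c49210_g2_i1. In these 11 transcripts the H2L mean was higher at 24h than at 0h and the L2H mean lower. The abundant c37686_g1_i1, c48177_g2_i1 and c44730_g2_i1 differed by -1.69, -1.47 and -1.01. In c26285_g1_i1 the arms went the same way and the difference of -1.86 is one of size, with changes of -2.73 in L2H and -0.86 in H2L (limma adjusted p = 0.00573).

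Among the rises it was 3.96 in c46349_g2_i1, 3.79 in c45525_g1_i2, 3.78 in c46349_g1_i2 and 3.37 in c24086_g1_i1. The last stood at 173, 153 and 62.6 in H2L at 0h, 293, 236 and 334 at 4h and 35.2, 31.5 and 32.1 at 24h, and in L2H at 6.96, 4.97 and 17.2 at 0h and 20.7, 27.0 and 34.8 at 24h, so the arms ended at like levels. The difference was 3.22 in c10031_g1_i1, 3.16 in c48740_g4_i1, 3.14 in c22914_g1_i1 and 2.9 in c39898_g1_i4. It was 2.49 in c42624_g2_i1, 1.85 in c47822_g1_i1 and 1.04 in the abundant c44133_g1_i1. In c47822_g1_i1 the H2L change was -0.08, so nearly all of the difference lies in L2H.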

How the results depend on the processing

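The number of L2H transcripts called at 24h against 0h, 474 with the main settings, was 0 with only the groups compared, 0 with libraries 1 and 2 averaged, 47 at an adjusted p under 0.01, 792 with the replicate block, 2727 with the third libraries of L2H at 0h and 4h left out, 4574 with array weights and 6892 with only libraries 1 and 2 of every group. In the 2 limma fits with 0 calls, 5018 and 2218 transcripts had an unadjusted p under 0.05. It ranged from 27 to 2102 when single libraries were left out, and from 343 to 564 under the scalings, filters, pseudocounts and the fit with no trend. Of the 6892, 471 were among the 474 in the same direction. The number with a difference between the arms, 2200, was 43 with libraries 1 and 2 averaged, 566 at an adjusted p under 0.01, 4068 with the same pair left out, 6766 with array weights and 7260 with only libraries 1 and 2, and ranged from 1059 to 3434 when single libraries were left out. Why these counts moved was not tested. The named transcripts kept their direction in all 1085 values under alternatives, and stayed called in 797.

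The replicate block used the library number within the arm. Same-numbered L2H libraries at 0h and 24h were compared by their deviations from the group means. These correlated at 0.053, 0.054 and 0.064, and each 0h library correlated best with its own number. In H2L the values were 0.111, 0.088 and 0.259. Correlations this weak, of deviations from means of 3 libraries, cannot decide whether the numbers pair the samples. The block gave 2923 differences between the arms. Depth is unknown, so no counting error could be given, and changes of low transcripts, among them the 6 low rises called in every fit without 1 library, are limited by it.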
